A study of Mus musculus with 2 samples.

Results

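The 9 genes described here make, sense or break down prostaglandin E2: Pla2g4a, Ptgs1, Ptgs2, Ptges, Ptges2, Ptges3, Ptger2, Ptger4 and Hpgd. They were chosen by name from the pathway, with earlier results of these data known. All 9 were among the 31053 genes of the deposited matrix. Their levels were compared in 4 kinds of cell barcode from a pool of mouse tumours. Each kind was defined by transcripts outside the 9 genes: keratins for tumour barcodes, complement C1q for macrophages, Cd3 for T cells and Ncr1 or Klrb1c for NK cells.

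Prostaglandin E2 is a short-lived lipid signal. Cytosolic phospholipase A2 (Pla2g4a) frees arachidonic acid from membranes, the cyclooxygenases (Ptgs1, constitutive in many tissues, and Ptgs2, the inducible COX-2) turn it into prostaglandin H2, and prostaglandin E synthases complete the step to prostaglandin E2. The receptors EP2 (Ptger2) and EP4 (Ptger4) raise cyclic AMP in the receiving cell, and Hpgd oxidises the lipid and ends the signal. In tumours the pathway is known for tumour or myeloid cells that make the lipid and for T, NK and dendritic cells that are dampened by it through EP2 and EP4.

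The study's title concerns ACSS2 inhibitors in triple negative breast cancer, and ACSS2 is the enzyme that makes acetyl-CoA from acetate outside mitochondria. Cells of 3 vehicle samples and 3 samples treated with an ACSS2 inhibitor (ACSS2i) were pooled on 1 droplet lane, 4000 to 6000 live cells from each, and an expression and a protein (antibody tag) library were made from that pool. The tissue is given as tumor and the strain as "NGS mouse" for both arms. The labels give no tumour cell line, site, dose, time, age or sex, and the design text names Bmal1 status, a factor that no label of the pool gives. The pool carries 6 tags (D0, D1, D4, U2, U3 and U4), and the arm behind a tag is named in no label or file used here. The tags are therefore given singly, as samples of unknown treatment, vehicle was not compared with ACSS2i, and no test between conditions was made. In a pool of this kind every interval covers counting error only.

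A level is given as CPM, the unique molecular identifiers (UMIs, counted transcripts) of a gene per 1000000 gene UMIs of the population, with an exact 95% Poisson interval. Limits of 500 or more genes and less than 15% mitochondrial UMIs kept 8784 of 9747 barcodes, and 865 of these, positive for more than 1 tag, were removed as doublets. The tumour gate (3 or more Krt8 and Krt18 UMIs and no Ptprc) held 5254 barcodes and 140754583 UMIs. The macrophage gate (3 or more C1qa, C1qb and C1qc UMIs) held 366 barcodes and 1678977 UMIs. The T gate (2 or more Cd3d, Cd3e and Cd3g UMIs) held 708 barcodes and 1452076 UMIs, and the NK gate (a Ncr1 or Klrb1c UMI and no Cd3) held 115 barcodes and 438227 UMIs. Depth differed: the median barcode held 25150.5 UMIs in the tumour gate, 4140.5 in the macrophage gate, 1617.5 in the T gate and 3302 in the NK gate. The immune gates were also limited to fewer than 3 keratin UMIs. The barcodes that this limit and the doublet call removed carried 68.9% of the macrophage gate's UMIs, 68.1% of the T gate's and 65.1% of the NK gate's, and they held Ptgs2 at 600 CPM, 508 CPM and 737 CPM. Sox9, a transcription factor abundant in tumour-gate barcodes, stood at 693 CPM, 718 CPM and 661 CPM in them, so ratios from the rule as written are given beside those that it moves by over 1.5 times.

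The tumour gate carried its keratins, Krt8 at 822 CPM and Krt18 at 220 CPM, but other epithelial genes were near 0 in it: Epcam had 1 UMI, Cdh1 9, Krt7 3 and Krt19 10. The fibroblast transcript Dcn stood at 2582 CPM there. The gate is thus named by its rule and not as an epithelial cell. The macrophage, T and NK gates held all 8, 8 and 5 of their markers with at least 1 UMI, at summed levels of 27879 CPM, 4822 CPM and 2195 CPM. The tumour gate also held each of these with at least 1 UMI, and the sums include the genes that define the gates. Each marker outside those genes was higher in its own gate than in the tumour gate. Examples are Apoe at 8838 CPM in macrophages, Trbc2 at 1021 CPM in T and Prf1 at 707 CPM in NK barcodes. The tumour gate held these at 4.32 CPM, 0.426 CPM and 0.128 CPM. The T gate also held the 6 fibroblast markers at a summed 1291 CPM, including Col1a1 at 406 CPM against 29.7 CPM in the tumour gate, and their part in the T levels was not tested.

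The promoters of the cyclooxygenase genes are shown first, because Ptgs2 and Ptgs1 catalyse the same reaction and their levels were ordered differently between the gates. Each runs 5′ to 3′ from 250 bases before to 50 bases after the RefSeq transcript start (build GRCm38.p6). Ptgs2 lies at chr1:150100031-150108227 and Ptgs1 at chr2:36230426-36252272, both on the plus strand. Capitals mark matches to the motifs searched on both strands: a CRE core TGACGT (the cyclic AMP response element), an E-box CACGTG, a C/EBP palindrome TTGCGCAA, an AP-1 motif TGANTCA and a TATA box TATAAA. The printed intervals are chr1:150099781-150100080 for Ptgs2 and chr2:36230176-36230475 for Ptgs1.
Ptgs2 promoter: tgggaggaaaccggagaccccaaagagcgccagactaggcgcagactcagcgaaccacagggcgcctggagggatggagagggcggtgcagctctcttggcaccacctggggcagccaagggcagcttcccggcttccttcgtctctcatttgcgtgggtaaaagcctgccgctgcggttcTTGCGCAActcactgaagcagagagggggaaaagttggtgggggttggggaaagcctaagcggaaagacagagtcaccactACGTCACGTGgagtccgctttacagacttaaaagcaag
Ptgs1 promoter: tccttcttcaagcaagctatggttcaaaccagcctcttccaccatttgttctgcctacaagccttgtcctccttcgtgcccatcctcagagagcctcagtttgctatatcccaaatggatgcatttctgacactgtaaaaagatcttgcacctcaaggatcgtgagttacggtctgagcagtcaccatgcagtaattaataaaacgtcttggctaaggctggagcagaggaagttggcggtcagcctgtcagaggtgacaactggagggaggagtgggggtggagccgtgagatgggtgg

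The Ptgs2 window held the CRE core on the minus strand (read as ACGTCA, bases 13 to 18 after the start), an E-box that overlaps it (bases 17 to 22) and the C/EBP palindrome (69 to 62 bases before the start). The Ptgs1 window held none of the 5 motifs. Among 32851 RefSeq promoter windows of the same length, 7.51% held the CRE core, 7.15% the E-box, 0.183% the C/EBP palindrome, 7.81% the AP-1 motif and 13.6% the TATA box. Of the 9 members, 1 held the CRE core (Ptgs2), 2 the E-box (Ptgs2 and Ptges2), 1 the C/EBP palindrome (Ptgs2), none the AP-1 motif and 2 the TATA box (Hpgd, and the downstream start of Pla2g4a). The TATA box match of Hpgd lay at bases 5 to 10 after the start. That of Pla2g4a lay 200 to 195 bases before its start, on the opposite strand (read as TTTATA). A match describes letters in the window and shows no binding.

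Pla2g4a, the phospholipase that supplies arachidonic acid (chr1:149829618-149961290, minus strand), was highest in the tumour gate and next in the macrophage gate. Its level was 81.1 CPM in the tumour gate (79.6 to 82.6, 11416 UMIs), 51.2 CPM in macrophages (41.0 to 63.3, 86 UMIs), 8.95 CPM in T barcodes (4.77 to 15.3, 13 UMIs) and 2.28 CPM in NK barcodes (0.0578 to 12.7, 1 UMI). The macrophage level was 0.632 times that of the tumour gate (95% counting interval 0.505 to 0.781), and the T level 0.110 times (0.0588 to 0.189). T and NK barcodes, the lowest 2 in the order, could not be told apart by counting error (T over NK 3.92, 0.589 to 167). With the rule as written, which keeps the keratin-rich barcodes and the doublets, the ratios were 0.845 in macrophages, 0.668 in T and 0.638 in NK barcodes.

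Ptgs2 had its highest level in the tumour gate, at 521 CPM (517 to 525, 73341 UMIs). Macrophages followed at 341 CPM (313 to 370, 572 UMIs), then T barcodes at 45.5 CPM (35.2 to 57.8, 66 UMIs) and NK barcodes at 9.13 CPM (2.49 to 23.4, 4 UMIs). Every step in this order was larger than counting error. The macrophage level was 0.654 times that of the tumour gate (0.601 to 0.7099) and 7.50 times that of the T gate (5.80 to 9.82). T barcodes stood 4.98 times above NK barcodes (1.86 to 18.8).

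Free RNA from lysed cells gives every barcode some UMIs, so Ptgs2 was set beside 3 genes of the tumour gate, Sox9, Hmga2 and Ereg, which were picked with their values known. These stood at 2.83% to 7.58% of their tumour-gate level in macrophages, 5.17% to 7.74% in T barcodes and 1.25% to 2.42% in NK barcodes. Ptgs2 was at 65.4% of its tumour-gate level in macrophages, well over that range. It was at 8.72% in T barcodes (a ratio of 0.0872, 0.0675 to 0.111), an interval that overlaps the range, and at 1.75% in NK barcodes, inside the range, so neither level is separable from background. A group of 6 macrophage barcodes with 3 or more UMIs of the 3 genes together held 68 of the 572 Ptgs2 UMIs. Without them the macrophage level was 313 CPM and its ratio to the tumour gate 0.600. In the T gate 7 such barcodes held 25 of the 66 UMIs, and the level without them was 29.7 CPM. A fixed count also takes in deep barcodes: 24 of the 68 macrophage UMIs came from 1 barcode of 22669 UMIs with 2 Sox9, 2 Hmga2 and 0 Ereg UMIs. With the keratin limit and the doublet call both dropped, the Ptgs2 ratios to the tumour gate were 1.003 in macrophages, 0.696 in T barcodes and 0.933 in NK barcodes.

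**Figure D1:**
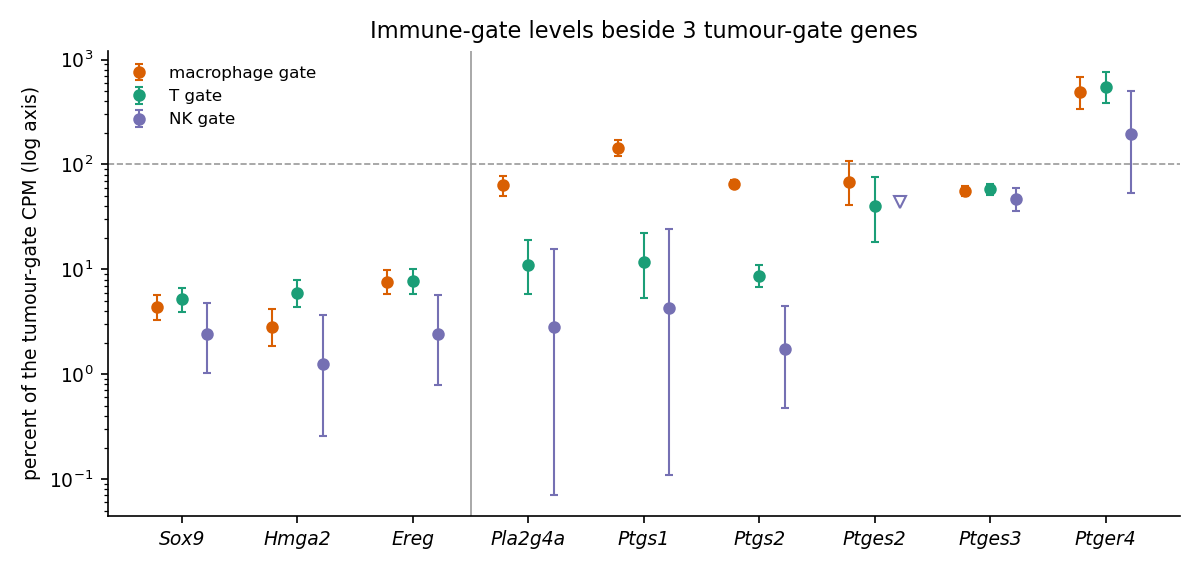
Level of each gene in the macrophage, T and NK gates as a percent of its tumour-gate CPM (log axis), with 95% counting intervals, beside Sox9, Hmga2 and Ereg left of the vertical line. The dashed line is the tumour-gate level, the open triangle is the upper limit that 0 UMIs allow, and Ptges, Ptger2 and Hpgd are not drawn. In macrophages Ptgs2 lies at 65.4% and Ptgs1 at 144%, while the 3 genes on the left lie at 2.83% to 7.58%.

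Ptgs1 was ordered the other way between the leading gates. Macrophages held it at 76.2 CPM (63.6 to 90.6, 128 UMIs) and the tumour gate at 52.8 CPM (51.6 to 54.0, 7431 UMIs), a ratio of 1.44 (1.20 to 1.72). In T barcodes it was 6.20 CPM (2.83 to 11.8, 9 UMIs) and in NK barcodes 2.28 CPM (0.0578 to 12.7, 1 UMI), and the T and NK levels could not be told apart (2.72, 0.376 to 119). Neither these nor the T and NK levels of Pla2g4a are separable from the free RNA described above. As a ratio to the tumour gate Ptgs1 in T barcodes was 0.117 (0.0537 to 0.223). Of its 9 UMIs, 4 lay in 1 of the 7 T barcodes with tumour-gate genes, and 4 of the 13 of Pla2g4a lay in 4 of those 7. Without U2 the T ratio of Ptgs1 was 0.0605. Ptgs1 was higher in macrophages than in tumour-gate barcodes in each of the 4 tags with at least 20 macrophage barcodes: 82.7 CPM against 59.8 CPM in U2, 101 CPM against 55.9 CPM in D0, 72.1 CPM against 49.7 CPM in D1 and 71.4 CPM against 39.2 CPM in U4. The intervals were apart only in D1 (55.2 to 92.7 against 47.4 to 52.1). Those of U2, D0 and U4 overlapped, on 37, 19 and 6 macrophage UMIs. With the rule as written the ratio was 1.12, and those of T and NK barcodes were 0.576 and 0.666. Ptgs1 is also abundant in platelets. Of the 4 platelet markers, Pf4, which macrophages can express as well, stood at 1173 CPM in the macrophage gate, while Itga2b had 2 UMIs, Ppbp 1 and Gp1bb 0.

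Each of the 3 synthases that finish prostaglandin E2 had its highest counted level in the tumour gate. Their ratios to that gate had overlapping intervals in macrophages and in T barcodes. Ptges, the inducible microsomal synthase (chr2:30889471-30929863, minus strand), had 6.49 CPM in the tumour gate (6.07 to 6.92, 913 UMIs), and 5, 2 and 0 UMIs in the macrophage, T and NK gates. Its macrophage level of 2.98 CPM was 0.459 times that of the tumour gate, with an interval that includes 1 (0.149 to 1.08), and it was 0.253 without U2 and 0.729 without D1. In T barcodes the ratio was 0.212 (0.0257 to 0.769), an interval that covers the range of the 3 genes used to gauge free RNA, and 0.579 with the rule as written. Both T UMIs came from U3. For NK barcodes, 0 of 438227 UMIs allows up to 6.85 CPM, which does not separate NK from tumour barcodes. Ptges overlaps a processed pseudogene (Gm13400) on its own strand, which is not among the genes of the deposited matrix. Ptges2, a second membrane-associated synthase (chr2:32395896-32405772, plus strand), stood at 15.6 CPM in the tumour gate, 10.7 CPM in macrophages (18 UMIs), 6.20 CPM in T barcodes (9 UMIs) and at 0 UMIs in NK barcodes. Its macrophage ratio to the tumour gate was 0.688 (0.407 to 1.09). Its T ratio was 0.398 (0.182 to 0.756), and 0.627 with the rule as written. Ptges3, a cytosolic protein better known as the HSP90 co-chaperone p23 (chr10:128058954-128077272, plus strand), was the most even of the 9, and a pseudogene copy of it elsewhere in the genome may share reads with it. It was 322 CPM in the tumour gate (319 to 325), 180 CPM in macrophages (160 to 201), 186 CPM in T barcodes (164 to 209) and 151 CPM in NK barcodes (116 to 192). The 3 immune gates did not differ from each other beyond counting error in Ptges3, with ratios of 0.967 (0.818 to 1.14) for macrophages over T, 1.19 (0.912 to 1.58) for macrophages over NK and 1.23 (0.940 to 1.64) for T over NK. The ratio of Ptges3 to the tumour gate was 0.559 (0.497 to 0.626) in macrophages and 0.578 (0.511 to 0.651) in T barcodes. The NK ratio was 0.468, and 0.849 with the rule as written.

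Both receptors were higher in T barcodes and macrophages than in the tumour gate. Ptger4, which encodes EP4 (chr15:5206661-5244187, minus strand), was 25.5 CPM in T barcodes (17.9 to 35.1, 37 UMIs), 22.6 CPM in macrophages (16.0 to 31.1, 38 UMIs), 9.13 CPM in NK barcodes (2.49 to 23.4, 4 UMIs) and 4.65 CPM in the tumour gate (4.30 to 5.02, 654 UMIs). It was 5.48 times higher in T barcodes than in the tumour gate (3.83 to 7.64) and 4.87 times higher in macrophages (3.42 to 6.76). T barcodes and macrophages did not differ beyond counting error (macrophage over T 0.888, 0.550 to 1.44), nor did NK and tumour-gate barcodes (1.96, 0.534 to 5.05, and 3.33 without D1). With the rule as written the T and macrophage ratios were 2.77 and 2.65. Ptger4 was above the tumour gate in 5 of 6 tags in T barcodes and in 3 of 4 tags in macrophages. The exceptions were D4 in T barcodes and U4 in macrophages, each at 0 UMIs.

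Ptger2, which encodes EP2 (chr14:44988195-45003820, plus strand), had 7 UMIs among 140754583 in the tumour gate, a level of 0.0497 CPM (0.0200 to 0.102). T barcodes held 16 UMIs, or 11.02 CPM (6.30 to 17.9), macrophages 12 UMIs, or 7.15 CPM (3.69 to 12.5), and NK barcodes 2 UMIs, or 4.56 CPM (0.553 to 16.5). The T level was 222 times that of the tumour gate (86.2 to 637) and the macrophage level 144 times (52.2 to 431). With the rule as written these were 75.7 and 60.0. Both receptor genes overlap a gene on the opposite strand, and no source used here states whether the counting used strand, so both levels are uncertain to that extent. Ttc33, opposite Ptger4, was higher in the tumour gate (35.7 CPM) than in macrophages (20.3 CPM) or T barcodes (23.4 CPM). The antisense gene Gm17173, opposite Ptger2, had 136 UMIs in the tumour gate and 0 in each immune gate.

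Hpgd, the enzyme that inactivates prostaglandin E2 (chr8:56294585-56321043, plus strand), had 16 UMIs over all kept barcodes, 10 of them in the macrophage gate and 6 in barcodes of no gate. The 10 lay in different macrophage barcodes, at 5.96 CPM (2.86 to 10.95). It had 0 of 140754583 UMIs in the tumour gate, which allows up to 0.0213 CPM, so the macrophage level was at least 279-fold higher against that limit of 3 counts. The bound was 128 without D1, 120 with the rule as written and 188 at the lower end of its counting interval. The T gate, at 0 UMIs, allows up to 2.07 CPM and the NK gate, also at 0, up to 6.85 CPM, so their levels were not measurable at this depth. Macrophages with Hpgd came from D1 (7 UMIs), U3 (2 UMIs) and U4 (1 UMI). Hpgd overlaps Gm45540 on its own strand, which is not among the genes of the deposited matrix.

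**Figure D2:**
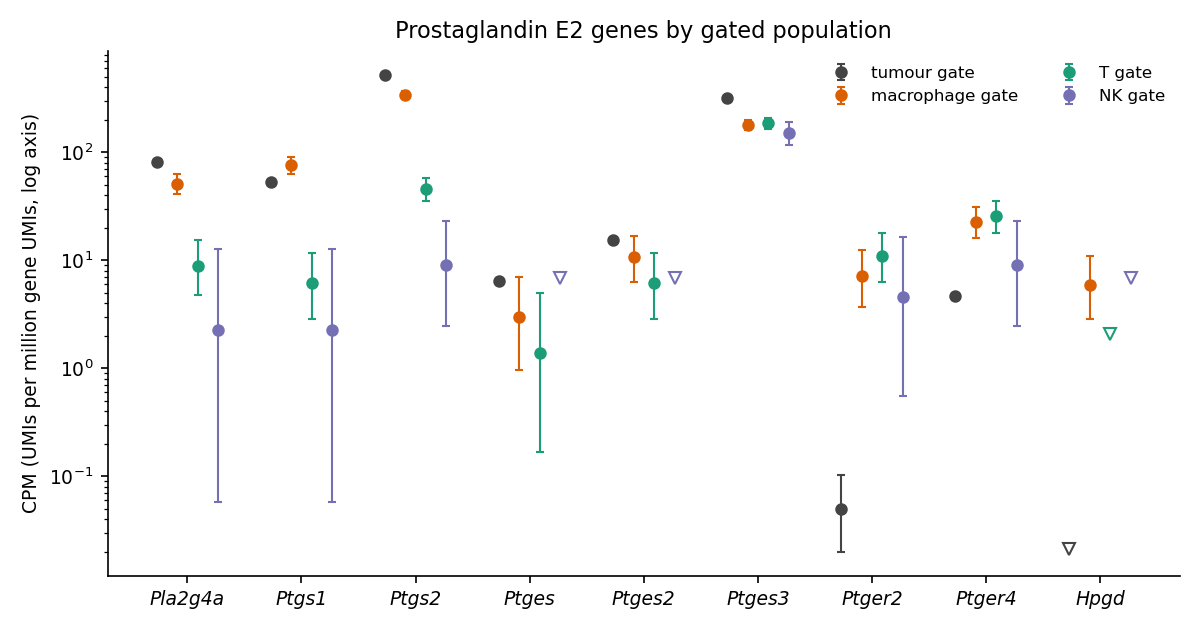
CPM of the 9 genes (log axis) in the tumour, macrophage, T and NK gates, with exact 95% Poisson intervals. Open triangles mark the level that 0 UMIs allow (3 counts). Pla2g4a, Ptgs1 and Ptgs2 are lower in T and NK barcodes than in the tumour gate or macrophages. The tumour gate lies below T barcodes and macrophages for both receptors, at 0.0497 CPM of Ptger2 and 4.65 CPM of Ptger4. Its Ptger4 is not apart from that of NK barcodes.

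Counted over the 9 members, a gene was called higher or lower where its ratio to the tumour gate passed 2-fold with an interval apart from 1, among genes with at least 20 UMIs over both gates. In macrophages 7 members could be called: 1 was higher (Ptger4) and 0 lower, against a background of 16.0% of 13652 genes higher and 16.8% lower. In T barcodes 8 could be called: 2 were higher (Ptger2 and Ptger4) against a background of 18.4%, and 5 lower (Pla2g4a, Ptgs1, Ptgs2, Ptges and Ptges2) against 16.7%. In NK barcodes 7 could be called: 0 were higher against 12.3%, and 5 lower (Pla2g4a, Ptgs1, Ptgs2, Ptges2 and Ptges3) against 14.5%. The macrophage counts and the 2 receptors higher in T barcodes are near the background shares, and the 5 lower in T and in NK barcodes are above them. The background was not matched for level. It includes genes too low in the tumour gate to be called lower at the depth of an immune gate, as was Ptges in NK barcodes. The counts lower are thus not set against a like background. The median ratio of the members that could be called was 0.654 in macrophages, 0.305 in T and 0.439 in NK barcodes, beside 1.05, 1.16 and 1.27 over all genes that could be. Hpgd never reached the minimum, and Ptger2 reached it only through the T gate, where it was highest. With the rule as written, 0 members were lower in T barcodes, where the same 5 ratios lay between 0.576 (Ptgs1) and 0.696 (Ptgs2), and 1 in NK barcodes (Ptges2, at 0.303).

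The share of barcodes with a UMI follows depth, so barcodes were also thinned to 1000 UMIs each, which left out 15, 6, 45 and 2 shallower barcodes of the tumour, macrophage, T and NK gates. Before thinning, Ptgs2 was seen in 86.0% of tumour-gate barcodes, 37.4% of macrophages, 4.94% of T and 2.61% of NK barcodes. At 1000 UMIs it was seen in 31.04% (29.8 to 32.3), 20.3% (16.2 to 24.8), 3.32% (2.09 to 4.98) and 0.885% (0.0224 to 4.83). Sox9, which macrophages, T and NK barcodes should lack, was seen in 49.4% of thinned tumour-gate barcodes, 2.78% of macrophages, 3.92% of T and 2.65% of NK barcodes. The Ptgs2 shares in T and NK barcodes were no higher than those of Sox9. Sox9 was also seen more often than Ptgs2 in the tumour gate, so these shares alone do not set Ptgs2 against background. Ptger4 was seen in 10.9% of tumour-gate barcodes and 4.66% of T barcodes before thinning, an order that goes against the CPM. At 1000 UMIs it was seen in 0.687% (0.482 to 0.9501) of tumour-gate barcodes, 2.78% (1.34 to 5.05) of macrophages and 2.11% (1.16 to 3.52) of T barcodes.

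Across the tags, Ptgs2 varied most among the well-counted members of the tumour gate. It was 695 CPM in U2 (688 to 703), 508 CPM in D0 (487 to 531), 470 CPM in D4 (448 to 492), 467 CPM in D1 (460 to 474), 300.04 CPM in U3 (283 to 318) and 280 CPM in U4 (266 to 293). U2 was alone at the top, D0, D4 and D1 lay in the middle, and U3 and U4 were lowest, 2.49-fold below U2 at the extremes. Of the 15 pairs of tags, 12 had intervals that did not overlap. Untagged barcodes lay at 434 CPM. Median depth in the tumour gate ran from 23188 UMIs (D4) to 30791.5 UMIs (D1), with U3 at 23948 and U4 at 24711. Sox9 was also lowest in U3 (534 CPM) and U4 (479 CPM), beside 709 to 829 CPM in the other 4 tags. Whether treatment, tumour or handling goes with this order cannot be told apart here.

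Ptgs1 in the tumour gate was lowest in the same tags, at 31.7 CPM in U3 (26.3 to 38.0) and 39.2 CPM in U4 (34.3 to 44.7), beside 49.7 CPM in D1, 55.9 CPM in D0, 57.5 CPM in D4 and 59.8 CPM in U2. It had 9 of 15 pairs with intervals apart. Pla2g4a ran from 69.0 CPM (U4) to 89.8 CPM (D4) and Ptges3 from 309 CPM (D4) to 343 CPM (D0), each with 3 of 15 pairs apart. Ptges ran from 4.27 CPM (U3) to 7.70 CPM (D4) and Ptges2 from 13.8 CPM (U4) to 17.2 CPM (D1), with no pair apart. Ptger4 ran from 3.34 CPM (D4) to 5.69 CPM (U2), with 1 pair apart.

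In macrophages Ptgs2 was 456 CPM in U2 (204 UMIs), 304 CPM in D1 (257 UMIs), 288 CPM in D0 (54 UMIs) and 202 CPM in U4 (17 UMIs). It lay below the tumour-gate level of the same tag in 4 of 4 tags, and U2 was highest and U4 lowest in both gates. U3 and D4 had fewer than 20 macrophage barcodes, with 30 and 10 Ptgs2 UMIs. Of the 30 in U3, 24 came from 1 barcode of 22669 UMIs, which held 2 Sox9, 2 Hmga2 and 0 Ereg UMIs. Its Sox9 was 88.2 CPM, against 759 CPM in the tumour gate, and its Ptgs2 1059 CPM. In T barcodes Ptgs2 ran from 7.87 CPM (D0) to 62.6 CPM (U2), with a median of 29.9 CPM over 6 tags, and was below the tumour gate in all 6.

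**Figure D3:**
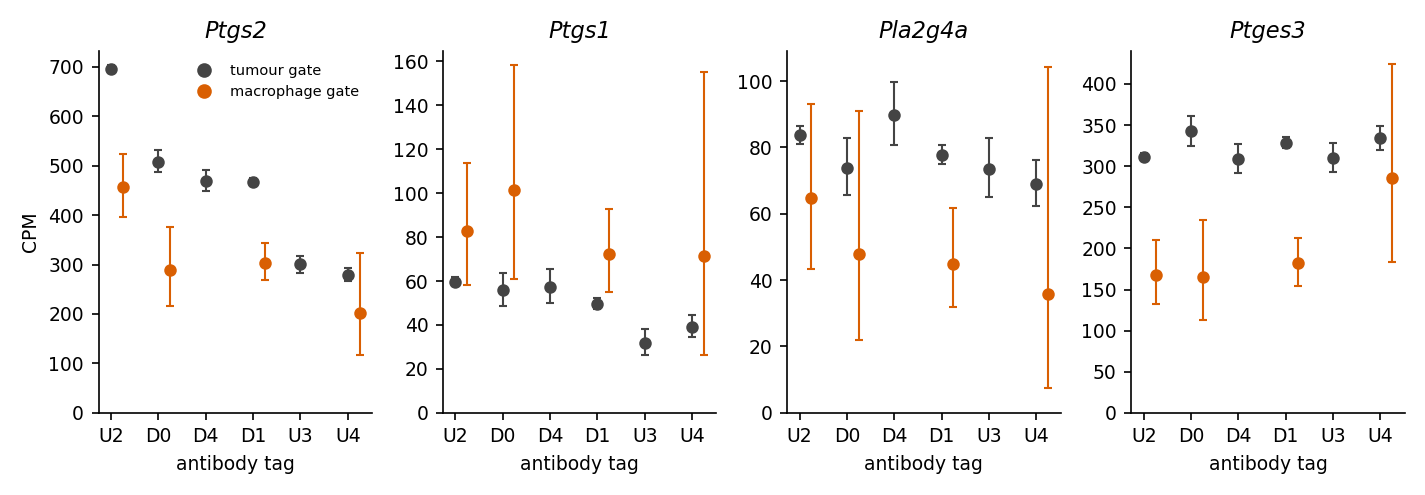
CPM of Ptgs2, Ptgs1, Pla2g4a and Ptges3 in each antibody tag (treatment unknown) for the tumour gate and, for tags with at least 20 barcodes, the macrophage gate, with 95% Poisson intervals and tags ordered by tumour-gate Ptgs2. Tumour-gate Ptgs2 runs from 695 CPM in U2 to 280 CPM in U4. Ptgs1 is higher in macrophages than in the tumour gate in each of the 4 tags drawn, with intervals apart only in D1.

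Within the tumour gate Ptgs2 was unevenly held. No Ptgs2 UMI was seen in 735 barcodes (14.0%), the median barcode held 8 UMIs and the highest 241. The 525 barcodes with the most Ptgs2 UMIs held 40.4% of all Ptgs2 UMIs of the gate. Per 10000 UMIs the median barcode held 2.94 and the 95th percentile 18.5. In macrophages 62.6% of barcodes had none, and the highest held 39 of the 572 UMIs (6.82%). By tag, the median tumour-gate barcode held 4.69 Ptgs2 UMIs per 10000 in U2, 3.15 in D1, 2.51 in D0, 2.44 in D4, 1.67 in U3 and 1.32 in U4. The order of the medians thus matched that of the CPM at both ends, and the ranges from the 25th to the 75th percentile overlapped between all 6 tags.

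**Figure D4:**
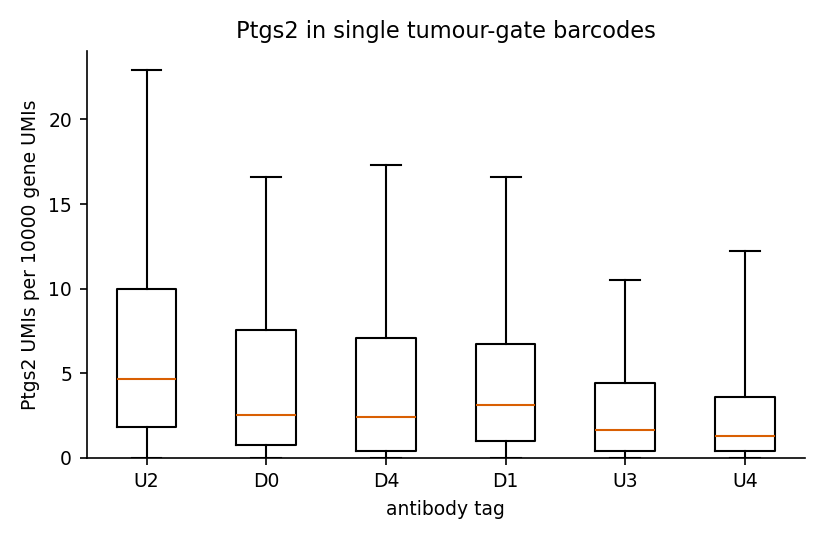
Ptgs2 UMIs per 10000 gene UMIs in single tumour-gate barcodes of each tag. Boxes span the 25th to 75th percentiles with the median as a line, and whiskers the 5th to 95th; the median is 4.69 in U2 and 1.32 in U4, and the boxes of all 6 tags overlap.

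Members were also compared between the 526 tumour-gate barcodes with the most Ptgs2 per UMI and the 735 with none. Median depth was 23085 and 18966 UMIs. Ptgs1 was 91.0 CPM against 37.4 CPM, a ratio of 2.43 (2.19 to 2.70), Pla2g4a 135 CPM against 52.2 CPM, a ratio of 2.59 (2.38 to 2.83), Ptges 9.40 CPM against 4.09 CPM, a ratio of 2.30 (1.67 to 3.20), and Ptger4 6.79 CPM against 3.33 CPM, a ratio of 2.04 (1.42 to 2.97). Ptges2 and Ptges3 were lower where Ptgs2 was high, with ratios of 0.788 (0.639 to 0.970) and 0.759 (0.725 to 0.793). Ereg and Lif, a growth factor and a cytokine named after their values in these data were seen, stood at 1058 CPM against 133 CPM and at 174 CPM against 16.8 CPM. The keratin Krt8 was 732 CPM against 831 CPM and Hmga2 435 CPM against 470 CPM, while Sox9 was 925 CPM against 550 CPM. The barcodes were sorted by Ptgs2, so these values describe them and are not a test.

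Across the 5254 tumour-gate barcodes, the genes whose level per 10000 UMIs (log2 after adding 1) ran most like Ptgs2 were Ier3 (Pearson r = 0.51), Ereg (0.50), Btg2 (0.47), Nfkbiz (0.46) and Cxcl1 (0.46). Ier3, Btg2 and Nfkbiz are immediate-early genes and Cxcl1 is a chemokine that draws neutrophils. Among members the values with Ptgs2 were 0.30 for Pla2g4a, 0.22 for Ptgs1, 0.10 for Ptges, 0.07 for Ptger4, -0.03 for Ptges2 and -0.13 for Ptges3. These barcodes share 1 library and mix 6 tags and a range of depths, so the values describe the matrix only. Pla2g4a, Ptgs2 and Ptges were seen in the same barcode in 630 of 5254 tumour-gate barcodes (12.0%). Ptges was seen in 16.4% of barcodes with a Ptgs2 UMI and 7.33% of those without, but after thinning to 1000 UMIs the shares were 0.615% and 0.581%, so co-detection of this low gene was not separable from depth. For Ptgs1 the thinned shares were 6.46% with Ptgs2 and 3.90% without, and for Pla2g4a 8.36% and 6.42%.

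Over the 19 sums of a tag and gate with at least 20 barcodes, the genes whose log2(CPM + 1) ran most like Ptgs2 were Ier3 (r = 0.97), Myadm (0.96), Dstn (0.95), Pmepa1 (0.94) and Cstb (0.94). For Ptgs1 they were Rab6a (0.95), Sem1 (0.94), Basp1 (0.94), Etv1 (0.93) and Atpif1 (0.93), and for Ptger4 Bicra (0.92), Slc35e2 (0.91), Phtf2 (0.84), Chkb (0.83) and Siah2 (0.83). The sums share 1 library, differ in depth by gate and fall into 4 gates, so a high value reflects the order of the gates as much as that of the tags.

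Inside the T gate the receptors were compared by lineage transcripts. Ptger4 was 27.7 CPM in Cd8a barcodes (14.7 to 47.3), 49.8 CPM in Cd4 barcodes (18.3 to 108) and 19.7 CPM in Foxp3 barcodes (4.07 to 57.7), which mark regulatory T cells. Ptger2 was 10.6 CPM, 41.5 CPM and 26.3 CPM in the same order, on 5, 5 and 4 UMIs. Against Cd8a barcodes, no ratio of either receptor excluded 1: Ptger4 was 1.80 in Cd4 (0.560 to 5.07) and 0.714 in Foxp3 (0.130 to 2.60), and Ptger2 3.90 (0.896 to 16.9) and 2.47 (0.491 to 11.5). These intervals still allow several-fold differences. T barcodes with none of the 3 transcripts held 51 of the 66 Ptgs2 UMIs and 43 of the 53 Ereg UMIs of the gate.

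Macrophages were split by Arg1, the arginase of tissue-repair macrophages, into 272 barcodes with a UMI and 94 without. Ptgs1 was 85.5 CPM with Arg1 and 42.02 CPM without, a ratio of 2.03 (1.18 to 3.75). It was 1.86 (1.06 to 3.51) without the 6 barcodes that held 3 or more UMIs of Sox9, Hmga2 and Ereg together. By tag the ratio was 1.23 in U2, 1.83 in D0 and 2.51 in D1, and only that of D1 (1.08 to 7.13) excluded 1. Ptgs2 was 312 CPM with Arg1 and 445 CPM without, a ratio of 0.701 (0.583 to 0.847), but 1.03 (0.818 to 1.30) once the 6 barcodes were left out. By tag, with the 6 barcodes kept, the Ptgs2 ratio was 1.30 in U2 (0.825 to 2.15), 1.98 in D0 (0.925 to 4.85) and 0.467 in D1 (0.360 to 0.608). Only the interval of D1 excluded 1. D1 held 3 of the 6 barcodes, with 41 of its 257 Ptgs2 UMIs. Its ratio without them was not computed, so the tags are not shown to differ in direction. Median depth was 4433 UMIs with Arg1 and 2992.5 without, and the part of depth in the split was not tested. Ptger4 was 23.4 CPM and 19.6 CPM, a ratio of 1.20 (0.517 to 3.22).

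Other immune and vascular barcodes were gated after the values had been seen. A dendritic gate of 47 barcodes (2 or more UMIs of Flt3, Ccr7, Xcr1, Clec9a or Cd209a, few keratin, C1q and B-cell UMIs and no Cd3) held Ptger4 at 136 CPM (82.8 to 209, 20 UMIs). Its interval lies above those of the 4 gates, of Cd8a and Foxp3 T barcodes and of B and endothelial barcodes, and overlaps that of Cd4 T barcodes, which reaches 108 CPM. The Ptger4 UMIs came from 4 tags and from 13 of the 47 barcodes, and 18 of the 20 were in the 39 barcodes with Ccr7. Ccr7 is a receptor of mature dendritic cells that migrate to lymph nodes, but it is itself a gene of this gate. Ptger4 was 156 CPM (92.4 to 246) with Ccr7 and 62.4 CPM (7.55 to 225) without, intervals that overlap. Ccr7 was also at 182 CPM in T and 574 CPM in B barcodes. Flt3 was seen in 18 of the 47 barcodes, Clec9a in 5, Cd209a in 4 and Xcr1 in 3. Ptgs2 in this gate was 67.8 CPM (10 UMIs), Sox9 33.9 CPM, and Ptgs1, Pla2g4a, Ptges, Ptger2 and Hpgd were at 0 UMIs, which allows up to 20.3 CPM each. B barcodes (93) held 2 Ptger4 UMIs, and endothelial barcodes (39) held 0 Ptger4 and 2 Ptger2 UMIs.

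**Figure D5:**
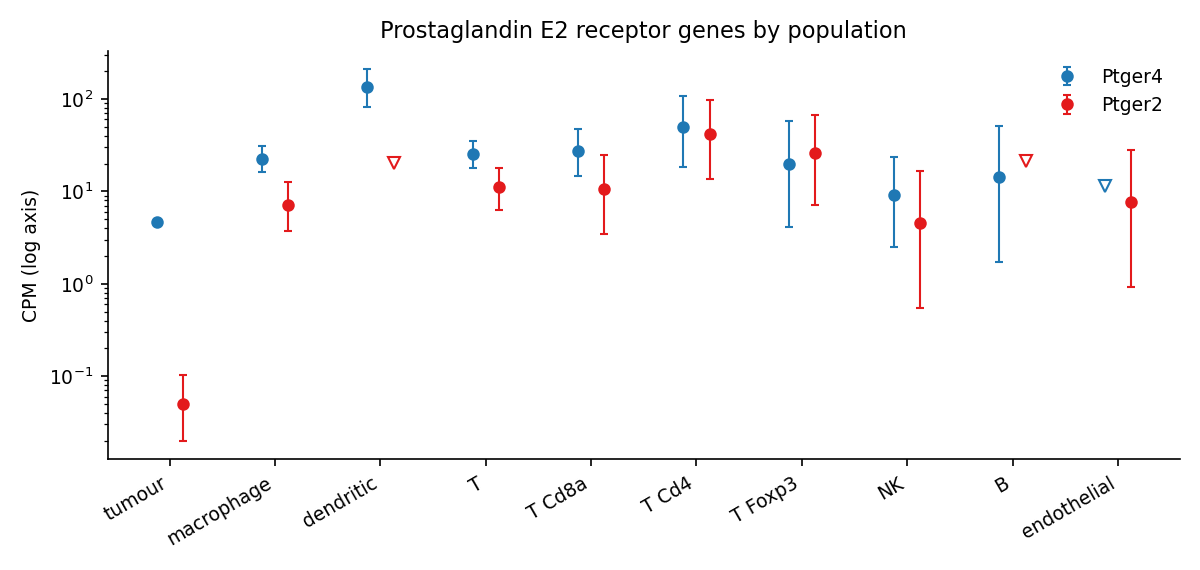
CPM of Ptger4 and Ptger2 (log axis) in the 4 gates, T barcodes split by Cd8a, Cd4 and Foxp3, and dendritic, B and endothelial barcodes gated after the values had been seen, with 95% Poisson intervals and open triangles for the limit of 0 UMIs. The dendritic gate holds Ptger4 at 136 CPM, and the tumour gate 4.65 CPM of Ptger4 and 0.0497 CPM of Ptger2.

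Around the members, 12 of 15 other prostanoid enzymes could be called in macrophages, 6 higher and 1 lower, against the 16.0% and 16.8% of all genes. Their median ratio was 3.09 beside 1.05 over all genes, with genes at 0 UMIs set to 3 counts. Ptgds, at 0 macrophage UMIs, enters the 3.09 at the upper limit that this allows, a ratio of 2.35. Fam213b, with 11 UMIs in the tumour gate, could be called only through the macrophages. The enzymes of other prostanoids were among the higher ones, Tbxas1 (thromboxane synthase) at 73.3 CPM against 0.171 CPM in the tumour gate, Hpgds (the haematopoietic prostaglandin D synthase) at 61.3 CPM against 0.433 CPM and Fam213b (a prostaglandin F synthase) at 71.5 CPM against 0.0782 CPM, as was the platelet-activating factor hydrolase Pla2g7 at 190.0 CPM against 24.5 CPM. Others were not: Ptgds, the other prostaglandin D synthase, had 0 UMIs in macrophages and 0.760 CPM in the tumour gate, and Ptgis (prostacyclin synthase) 1 UMI and 2.15 CPM. Hpgds, Tbxas1, Fam213b, Ptgds and Ptgis were named after their values were seen. Cbr1, a carbonyl reductase, was higher in all 3 immune gates, 11.3 CPM in macrophages, 24.1 CPM in T and 16.0 CPM in NK barcodes against 2.20 CPM in the tumour gate. In T barcodes 3 of 11 enzymes were higher and 2 lower (18.4% and 16.7% of all genes), and in NK barcodes 1 and 1 of 11 (12.3% and 14.5%). Pla2g6 and Pla2g15, 2 further phospholipases, stood at 4.75 CPM and 10.3 CPM in the tumour gate and at 1.19 CPM and 39.3 CPM in macrophages, and Akr1b3, an aldose reductase, at 74.5 CPM and 85.8 CPM.

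The other prostanoid receptors were scarce. Of 7 genes 3 could be called in each gate, too few to set against the shares over all genes, and Ptgir, the prostacyclin receptor, was the only one called in macrophages (6.45 times higher, 2.03 to 15.8, on 5 UMIs), with none in T or NK barcodes. The tumour gate held Ptger1 (EP1) at 1.58 CPM and Ptgfr (the prostaglandin F receptor) at 2.43 CPM, and T barcodes Tbxa2r (the thromboxane receptor) at 6.20 CPM on 9 UMIs. Ptger3 (EP3) had 9 UMIs over all kept barcodes and was named after its values were seen.

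Among 7 genes of prostaglandin transport and breakdown, Slco2a1, the transporter that takes prostaglandins back into cells for breakdown, stood out in the tumour gate. It was 89.8 CPM there (12643 UMIs), 5.96 CPM in macrophages (10 UMIs), 7.58 CPM in T barcodes (11 UMIs) and 0 UMIs in NK barcodes. These were 0.0663 (0.0318 to 0.122) and 0.0843 (0.0421 to 0.151) times the tumour-gate level. The macrophage value lies inside the range of the 3 genes used to gauge free RNA, and the T value is above theirs with an interval that overlaps it. Of the list's 7 genes, 2 were higher and 2 lower in macrophages, 0 and 3 in T barcodes, and 1 and 2 in NK barcodes, with median ratios of 0.608, 0.684 and 1.08 beside 1.05, 1.16 and 1.27 over all genes. The shares over all genes were 16.0% and 16.8%, 18.4% and 16.7%, and 12.3% and 14.5%, and each count is within 2 genes of its share. Abcc1, an exporter, was 55.2 CPM in the tumour gate and 31.6 CPM in macrophages, Slco3a1, another carrier, 27.4 CPM and 16.7 CPM, and Zadh2, a prostaglandin reductase, 14.5 CPM and 5.36 CPM.

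The leukotriene branch is another fate of arachidonic acid. Most of its 10 genes had fewer than 20 UMIs in the tumour gate, so they could be called only where an immune gate was high, and no count of calls is given. Alox5ap, which presents arachidonic acid to 5-lipoxygenase, was 676 CPM in macrophages and 2.10 CPM in the tumour gate. It was also higher in T (20.7 CPM) and NK barcodes (13.7 CPM). The macrophage markers Lyz2 and Apoe were 9368 CPM and 8838 CPM in macrophages. They were 224 CPM and 165 CPM in T, and 121 CPM and 265 CPM in NK barcodes. Free RNA of macrophages was not gauged, so the T and NK levels of Alox5ap are not shown to be apart from it. The receptors Cysltr1 and Ltb4r1 were 111 CPM and 56.6 CPM in macrophages against 0.0213 CPM and 0.0639 CPM in the tumour gate. Lta4h, the leukotriene A4 hydrolase, was 31.5 CPM in the tumour gate, 20.8 CPM in macrophages, 38.6 CPM in T and 84.4 CPM in NK barcodes.

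Genes known to induce Ptgs2 or to control the decay of its messenger were divided between the gates. In macrophages 7 of 18 were higher and 4 lower, in T barcodes 3 and 8, and in NK barcodes 2 and 9, with median ratios of 1.24, 0.650 and 0.465 beside 1.05, 1.16 and 1.27. Over all genes 16.0% were higher and 16.8% lower in macrophages, 18.4% and 16.7% in T and 12.3% and 14.5% in NK barcodes, so the counts higher in T and NK barcodes are near the background. The inducing cytokine Il1b was 2872 CPM in macrophages, 86.8 CPM in T barcodes, 73.0 CPM in NK barcodes and 2.01 CPM in the tumour gate. Tnf was 38.1 CPM, 19.97 CPM, 16.0 CPM and 0.163 CPM in that order. As for Alox5ap, the T and NK levels of Il1b are not shown to be apart from free RNA of macrophages, which was not gauged. The transcription factor genes Jun and Cebpd were lower in all 3 immune gates, Jun at 491 CPM, 441 CPM and 351 CPM against 1328 CPM in the tumour gate and Cebpd at 66.1 CPM, 26.2 CPM and 6.85 CPM against 185 CPM. Anxa1, an annexin that inhibits phospholipase A2, was lower in all 3 as well, at 265 CPM, 112 CPM and 196 CPM against 1322 CPM. Fos was 2233 CPM in the tumour gate and 1973 CPM in macrophages, and Nfkbia 1335 CPM and 810.0 CPM.

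Genes of the cyclic AMP response, which EP2 and EP4 signal through, were higher in 7 of 13 and lower in 1 of 13 in both macrophages and T barcodes, and in 4 and 2 of 13 in NK barcodes, with median ratios of 2.24, 2.20 and 1.19 beside 1.05, 1.16 and 1.27 over all genes. The shares over all genes were 16.0% higher and 16.8% lower in macrophages, 18.4% and 16.7% in T and 12.3% and 14.5% in NK barcodes. The NK median is below that of all genes, which includes genes at 0 NK UMIs set to 3 counts. Pde3b, with 10 UMIs in the tumour gate, could be called only through the immune gates. Crem, Nr4a3, Pde4b and Pde3b were higher in all 3 immune gates. Crem, a cyclic AMP responsive repressor, was 141 CPM in macrophages, 201 CPM in T barcodes and 93.6 CPM in NK barcodes against 17.3 CPM in the tumour gate. Nr4a3, an early-response nuclear receptor, was 136 CPM, 107 CPM and 63.9 CPM against 3.25 CPM, and the phosphodiesterases Pde4b and Pde3b, which break cyclic AMP down, were 166 CPM and 61.9 CPM in macrophages against 6.66 CPM and 0.0710 CPM. Nr4a1 was 112 CPM in the tumour gate and 195 CPM in macrophages, Dusp1 860.4 CPM and 745 CPM, Prkar1a 198 CPM and 194 CPM, and Areg 189 CPM and 82.2 CPM, with Areg at 359 CPM in T barcodes. All of these genes have other inputs, and the lists are described by their counts only.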

How the data were processed

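Cells of a pool of 3 vehicle and 3 ACSS2i tumour samples were profiled with an expression and an antibody tag library. The deposited matrix holds raw UMI counts, made with Cell Ranger on mm10 per the submitters' processing notes and written by software version 3.1.0, as per the file headers. Neither its annotation nor its strand setting is given in the sources used here. Tags were called with HTODemux (Seurat 5.3.0, R 4.3.3, positive quantile 0.99, seed 42), and gates, counts and exact intervals computed in Python 3.11.15 with numpy 2.4.6, scipy 1.17.1 and pandas 2.3.3. Of 7919 kept barcodes, 5590 had 1 tag and 2329 none, 1485 passed no gate and 9 passed 2. No barcode appeared more than once. Doublets within a tag or with an untagged cell are not removed by tags.

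UMIs were summed per gate and given as CPM. CPM carry exact Poisson, shares Clopper-Pearson and ratios exact conditional 95% intervals, for counting error only. With 1 pool and unknown arms there is no test between groups and no p-value. A count of 0 is given a limit of 3 counts, also in every median ratio, so medians that include genes at 0 UMIs rest partly on limits. Thinning used seed 7. Alternatives were the gate limits, the gene and mitochondrial minimums, tags left out, the call rule and the thinning depth.

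The members, lists and gates were chosen with earlier results of these data known. The genes named were the 9 members, the 4 genes of each list with the most UMIs, genes called in 1 direction in all 3 immune gates, and the 5 genes most like Ptgs2, Ptgs1 and Ptger4 (over 200 UMIs across sums) or Ptgs2 in tumour-gate barcodes (seen in at least 5%). Others are marked as named after their values were seen, as were the dendritic, B and endothelial gates, Sox9, Hmga2, Ereg, Lif and the marker genes. Positions come from GENCODE M21 (GRCm38), which matched 31011 of 31053 identifiers, and promoter sequences from RefSeq, which matched all 9 members. Protein sequences were not used here.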

Additional observations from a re-analysis of the deposited data

Results flagged for a closer look

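Each member was checked for a tag far from the others in every gate with 4 to 6 tags of at least 20 barcodes. Of 25 such groups 2 were flagged, and chance flags about 1 in 20 for values without ties. That rate does not hold for counts as sparse as those of Ptges, where 1 tag with a UMI among tags at 0 is always flagged. Ptges in the T gate was 5.16 CPM in U3, on 2 UMIs, and 0 in the other 5 tags. Ptges3 in the macrophage gate was 286 CPM in U4, on 24 UMIs, with the next tag at 182 CPM.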

How the results depend on the processing

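Of 22 alternative settings, those of the call rule and the UMI minimum leave the ratios unchanged. Member ratios under the other settings gave 465 values. None reversed a called ratio, 416 stayed within the counting interval of the reported ratio and 49 lay outside it. A ratio that was not called could not count as reversed. The macrophage Ptgs2 ratio, for one, went from 0.654 to 1.003 with the rule as written. Dropping the keratin limit, alone or together with the doublet call (the rule as written), moved most values. Members called higher in macrophages, reported as 1, were 2 with no keratin limit, with doublets kept, with the rule as written, by the interval alone, by the mean over barcodes and by the median over tags, and 3 with a minimum of 5 UMIs. Members called lower there, reported as 0, were 1 with doublets kept, with a minimum of 1000 genes, and, in a setting chosen after seeing the data, with under 3 Sox9, Hmga2 and Ereg UMIs, and 3 by the interval alone. With each tag left out in turn they ran from 0 to 1 (1 without U2). In T barcodes the count higher, reported as 2, was 1 with a minimum of 1000 genes or of 100 UMIs, and 1 to 2 with each tag left out (1 without U2 and without D1). The count lower, reported as 5, was 2 with no keratin limit and 0 with the rule as written. In NK barcodes the count higher, reported as 0, was 1 with a minimum of 5 UMIs or by the median over tags and 2 by the mean over barcodes. The count lower, reported as 5, was 3 with no keratin limit, 1 with the rule as written or by the median over tags (3 members with enough tags), and 3 to 5 with each tag left out (3 without D0). The cause of these changes was not tested, except that higher or lower UMI minimums change how many members can be called. No paired analysis was possible because both libraries come from 1 pool and no tag has an arm or a replicate number. Depth limits the NK gate most: 0 UMIs there allows up to 6.85 CPM, so Ptges, Ptges2 and Hpgd at 0 are not shown to be absent.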
